A study of Mus musculus with 2 samples.

Results

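The chemokine CXCL12, both of its receptors and 5 further chemokines were followed in embryonic mouse kidney. The 8 genes were taken by name and Ensembl identifier from a set of 43346 measured mouse genes: the ligands Cxcl12, Cxcl14, Ccl2, Ccl25, Cxcl1 and Cxcl10, and the receptors Cxcr4 and Ackr3. All 8 were present in the gene tables, and their 23 transcripts in the transcript tables. The assay was total RNA-seq of whole kidney from B6NCrl embryos 16.5 days old, with no treatment or altered allele given in the labels. There was 1 group of 2 biological replicates, each pooled from male and female embryos, with 41 embryos in replicate 2. No second tissue, age or genotype was measured, so the comparisons are between ligands and receptors, between transcripts of a gene, and between the pools.

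Chemokines are small secreted proteins that steer cell migration through G protein-coupled receptors. CXCL12 signals through CXCR4, while ACKR3 is an atypical receptor that binds and takes up CXCL12 without classical G protein signalling, and in this way shapes how far the ligand reaches. In the developing kidney this system is known for its part in forming blood vessels, those of the glomerulus included. CCL2 draws monocytes, CXCL1 neutrophils and CXCL10, an interferon-induced ligand, activated T cells. CCL25 is best known from thymus and small intestine, where it acts on CCR9, and CXCL14 is made by several epithelia without inflammation.

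The families are named for the spacing of their first cysteines, which is why these stretches of the coding sequences are shown for all 6 ligands. They are written 5′ to 3′ on the coding strand from GENCODE M21 transcripts on GRCm38, with the cysteine codons in capitals.
Cxcl12: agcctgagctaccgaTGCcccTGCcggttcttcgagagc
Cxcl14: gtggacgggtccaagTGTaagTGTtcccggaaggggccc
Cxcl1: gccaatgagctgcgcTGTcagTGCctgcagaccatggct
Cxcl10: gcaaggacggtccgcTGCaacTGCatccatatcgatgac
Ccl2: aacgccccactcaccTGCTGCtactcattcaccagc
Ccl25: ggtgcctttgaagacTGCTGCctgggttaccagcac
In the 4 CXC ligands 1 codon stood between the cysteine codons, and in Ccl2 and Ccl25 there was none. Of these, Cxcl1 alone had the codons for glutamate, leucine and arginine directly before the first cysteine, the mark of CXC ligands that act on neutrophils. The stretches of Cxcl14 and Ccl25 each span an exon junction.

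Both receptors encode aspartate, arginine and tyrosine in a row, though the arginine and tyrosine codons differ in their last letter. These amino acids lie at the inner end of the third membrane helix and take part in G protein coupling of classical receptors. Their codons are shown in capitals because the codons that follow differ between the signalling and the atypical receptor.
Cxcr4: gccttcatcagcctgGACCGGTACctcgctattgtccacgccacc
Ackr3: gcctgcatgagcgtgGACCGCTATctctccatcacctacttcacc
The first lies at chr1:128589491-128589535 on the minus strand and the second at chr1:90214226-90214270 on the plus strand (GRCm38). Both stretches are in a single coding exon.

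The ligand Cxcl12 had the highest level of the 8 genes, and of its receptors the atypical Ackr3 exceeded the signalling Cxcr4. Levels are deposited TPM values, which are corrected for transcript length and library size and so allow genes to be compared. Cxcl12 (ENSMUSG00000061353.7, chr6:117168535-117181367, plus strand) stood at 124.21 TPM in replicate 1 and 135.65 TPM in replicate 2 (129.93 ± 8.09, SD, n = 2), from 6798 and 7937 counts. That level was above 94.0% of the 21474 protein-coding genes in replicate 1 and 94.4% in replicate 2. Ackr3 (ENSMUSG00000044337.5, chr1:90203980-90216751, plus strand) stood at 44.21 and 43.53 TPM (43.87 ± 0.481, n = 2), from 2932 and 3210 counts. Cxcr4 (ENSMUSG00000045382.6, chr1:128588199-128592293, minus strand) stood at 7.33 and 7.20 TPM (7.27 ± 0.0919, n = 2), from 274 and 275 counts. The deposited bounds of the 3 genes did not overlap each other in either library. In bulk tissue, fewer cells of a type and less RNA per cell cannot be told apart.

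Among the other ligands, Cxcl14 and Ccl25 were detected well above 1 TPM, and Ccl2, Cxcl10 and Cxcl1 lay close to it. Cxcl14 (ENSMUSG00000021508.10, chr13:56288643-56296551, minus strand) had 19.2 TPM in replicate 1 and 20.64 TPM in replicate 2 (19.9 ± 1.02, n = 2). Ccl25 (ENSMUSG00000023235.9, chr8:4325210-4360020, plus strand) had 9.40 and 8.0 TPM (8.70 ± 0.990, n = 2), from 167 and 154 counts. Both libraries thus placed Cxcl14 above Ccl25, and their bounds did not overlap. Ccl2 (ENSMUSG00000035385.5, chr11:82035571-82037453, plus strand) had 1.37 and 2.27 TPM (1.82 ± 0.636, n = 2), from 23 and 44 counts. Cxcl10 (ENSMUSG00000034855.9, chr5:92346638-92348889, minus strand) had 0.88 and 0.93 TPM (0.905 ± 0.0354, n = 2), from 20 and 23 counts. Cxcl1 (ENSMUSG00000029380.10, chr5:90891241-90893115, plus strand) had 1.17 and 0.52 TPM (0.845 ± 0.460, n = 2), from 23 and 11 counts. With so few counts these last 3 levels carry wide deposited bounds, from 0.264 to 0.874 TPM for Cxcl1 in replicate 2.

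**Figure D1:**
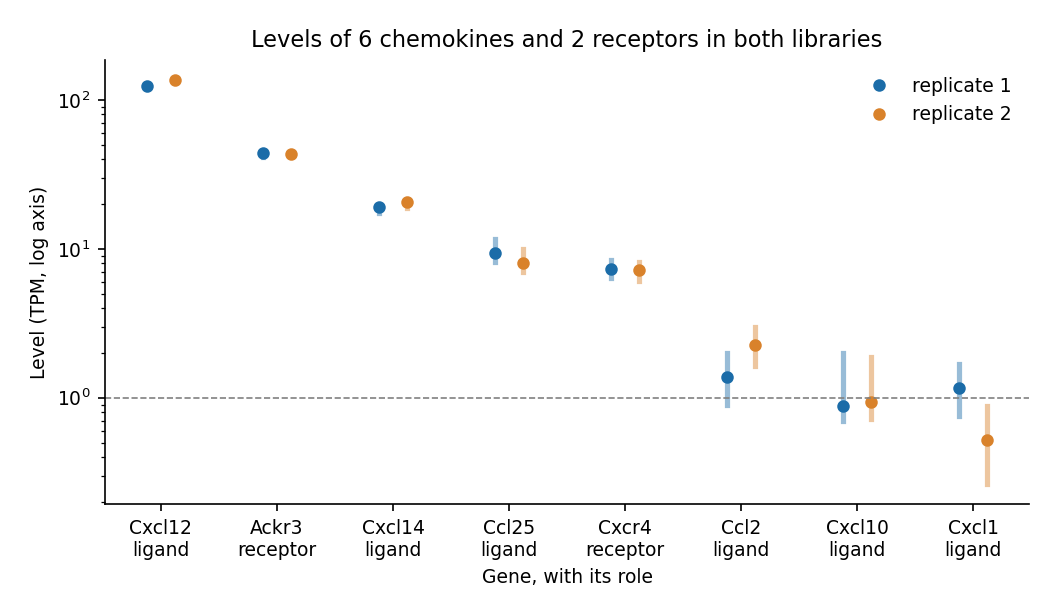
Level of each gene in TPM (log axis) in replicate 1 (blue) and replicate 2 (orange); points are the deposited estimates, bars run from the deposited lower to the upper bound, and the dashed line marks 1 TPM. Cxcl12 lies at 124.21 and 135.65 TPM, Ackr3 at 44.21 and 43.53, and Cxcl10 and Cxcl1 lie near the line.

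In descending order of mean level the genes were Cxcl12, Ackr3, Cxcl14, Ccl25, Cxcr4, Ccl2, Cxcl10 and Cxcl1. Neighbours whose deposited bounds overlapped in both libraries were Ccl25 and Cxcr4, Ccl2 and Cxcl10, and Cxcl10 and Cxcl1, so their order is not settled by these data. The last pair changed order between the libraries. Detection meant a level of at least 1 TPM in each library. Of the 8 genes 6 were detected, against 62.2% of all protein-coding genes, and Cxcl10 and Cxcl1 were the exceptions. The bounds surround the deposited posterior mean rather than the TPM estimate, so that an estimate can lie at or just outside a bound, as for Cxcl12 in replicate 1 (117.9 to 124.2 TPM).

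Ligand exceeded receptor for CXCL12 with either receptor. The level of Cxcl12 was 16.9 times that of Cxcr4 in replicate 1 and 18.8 times in replicate 2, a log2 ratio of 4.16 ± 0.108 (SD, n = 2). Against Ackr3 it was 2.81 and 3.12 times as high (log2 ratio 1.57 ± 0.106, n = 2). Both ratios were many times larger than their difference between the libraries. Ackr3 in turn was 6.03 and 6.05 times as high as Cxcr4. With 2 libraries of 1 group no test was made, since an exact two-sided test over 2 paired libraries cannot give a p under 0.5.

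Summed over the genes, the 6 ligands came to 156.23 and 168.01 TPM and the 2 receptors to 51.54 and 50.73 TPM. The ligand sum was 3.03 and 3.31 times the receptor sum (log2 ratio 1.66 ± 0.0903, n = 2). That direction rested on Cxcl12: the 5 ligands without it came to 32.02 and 32.36 TPM, which was 0.621 and 0.638 times the receptor sum. Cxcl12 was 6.47 and 6.57 times as high as Cxcl14, the next ligand of the set.

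The remaining ligands other than Cxcl14, which was not paired, were set beside a receptor known to bind them. CCR9, the receptor for CCL25 on T cells and their precursors, was near zero: Ccr9 had 0.04 TPM from 4 counts in replicate 1 and 0.15 TPM from 12 counts in replicate 2. Cxcr2, the neutrophil receptor for CXCL1, had 0.20 and 0.09 TPM from 13 and 5 counts. Cxcr3, the T cell receptor for CXCL10, had 0.21 and 0.17 TPM from 8 and 7 counts. In each of these pairs the ligand lay above its receptor in both libraries without overlap of the bounds. Ccr2, the monocyte receptor for CCL2, differed from them with 1.91 TPM in replicate 1 and 1.20 TPM in replicate 2, from 137 and 91.8 counts. Ccl2 was thus below Ccr2 in replicate 1, where the bounds overlapped, and above it in replicate 2, where they did not. The ligand was higher in both libraries in 5 of the 6 pairs, of which Cxcl12 supplied 2. An atypical receptor was paired with Cxcl12 alone, so this count depends on the pairs chosen.

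**Figure D2:**
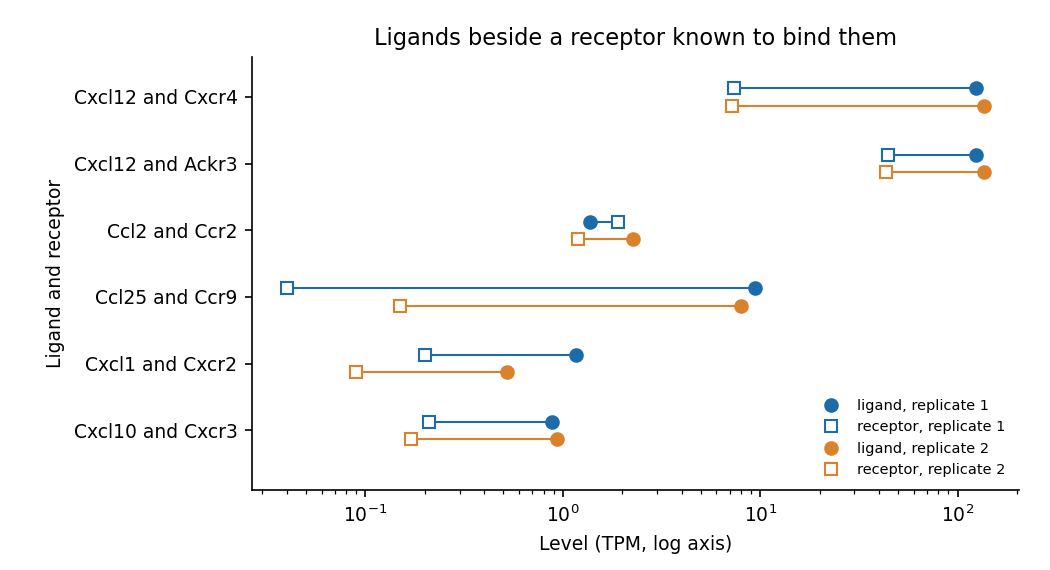
Level in TPM (log axis) of each ligand other than Cxcl14 (filled circles) and a receptor known to bind it (open squares), joined by a line, in replicate 1 (blue) and replicate 2 (orange). The pair of Ccl2 and Ccr2 changes order between the libraries, and Ccr9 stands at 0.04 and 0.15 TPM beside 9.40 and 8.0 TPM of Ccl25.

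Markers of cell types that make or receive these signals were read from the same libraries. Detection reached 4 of 4 nephron progenitor, 4 of 4 podocyte and 4 of 4 collecting duct markers. It also reached 5 of 5 stromal, 4 of 4 mural and 6 of 6 endothelial markers. By the same rule 62.2% of all protein-coding genes were detected. All 5 macrophage markers were detected as well, with summed levels of 81.8 and 84.1 TPM. Lymphocyte markers were detected in 1 of 6 cases (summed 2.00 and 1.79 TPM). The detected one was the B cell gene Cd79a (1.67 and 1.54 TPM), while Ms4a1, also a B cell gene, was listed at 0 in both libraries and the T cell gene Cd3e had 0 and 0.03 TPM. Neutrophil markers were detected in 3 of 6 cases and summed to 25.97 and 42.8 TPM, led by S100a8 with 14.7 and 24.8 TPM, while Ly6g had 0.52 and 1.14 TPM. For tissues known to make CCL25 or CXCL14, 0 of 3 thymic epithelial markers (summed 0.31 and 0.80 TPM), 1 of 4 small intestinal and 1 of 4 skin markers were detected. The intestinal exception was Vil1 (14.7 TPM in both), which proximal tubule also expresses, and Cdx2, which defines intestinal epithelium, was listed at 0 in both libraries. The skin exception was Krt10, with 5.85 and 4.93 TPM. What share each cell type had in the levels of the 8 genes was not tested. Mural markers summed to 397 and 658 TPM, a difference that lay in smooth muscle actin, Acta2 (304.9 and 563.6 TPM).

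Against the whole chemokine family, Cxcl12 was the highest of 38 ligand genes and took 37.7% and 39.6% of their summed TPM. Ackr3 and, by its mean, Cxcr4 were the highest of 23 receptor genes, with 65.7% and 67.8% of receptor TPM for Ackr3 and 10.9% and 11.2% for Cxcr4. Detection reached 15 of the 38 ligands and 6 of the 23 receptors, and both shares lie under the 62.2% of protein-coding genes. The median level was 0.78 and 0.66 TPM over the ligands and 0.26 and 0.38 TPM over the receptors, against 5.43 and 5.46 TPM over all protein-coding genes.

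Of the other CXC, CX3C and XC ligands 5 of 13 were detected. The platelet factor Pf4 led them with 30.9 and 30.4 TPM. The membrane-anchored Cx3cl1 had 10.8 and 10.6 TPM, the likewise membrane-anchored Cxcl16 7.46 and 8.19 TPM, and the B cell attractant Cxcl13 5.44 and 5.42 TPM. Cxcl9 and Cxcl11, which share the receptor CXCR3 with CXCL10, had 0 counts in both libraries, a value that allows up to 3 counts. These neighbours of Cxcl10 in the genome and in receptor use were therefore below it, although Cxcl10 itself rested on 20 and 23 counts.

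Of the other CC ligands 6 of 19 were detected. Ccl21a, a lymphatic ligand of CCR7, had 63.0 and 60.4 TPM, and Ccl27a, which acts on CCR10, 31.3 and 30.3 TPM. Both have near-identical gene copies, so their levels depend on how shared reads were divided. The eosinophil attractant Ccl11 had 9.61 and 12.4 TPM and Ccl6 4.38 and 4.42 TPM. Ccl1, Ccl8, Ccl22 and Ccl26 had 0 counts in both libraries.

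Of 17 other signalling receptors 3 were detected: Cx3cr1, the macrophage receptor for CX3CL1, with 6.47 and 4.43 TPM, Ccr1 with 1.67 and 2.08 TPM, and Ccr2. In replicate 1 the deposited bounds of Cx3cr1 (5.74 to 6.91 TPM) overlapped those of Cxcr4 (6.36 to 8.35 TPM), and in replicate 2 they did not, so the order of these receptors is not settled in replicate 1. Ccr10 followed with 0.62 and 0.42 TPM, and at the low end Xcr1 had 0.01 and 0 TPM and Ccr8 had 0 counts in both libraries. The other atypical receptors were 1.35 and 1.39 TPM for Ackr4, 0.84 and 0.94 TPM for Ccrl2, 0.71 and 0.72 TPM for Ackr2 and 0.61 and 0.38 TPM for Ackr1. Among the atypical receptors listed, Ackr3 was therefore the only one with an estimate above 2 TPM in these libraries. The deposited upper bounds of Ackr1 reached 2.61 TPM in replicate 1 and 2.24 TPM in replicate 2.

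**Figure D3:**
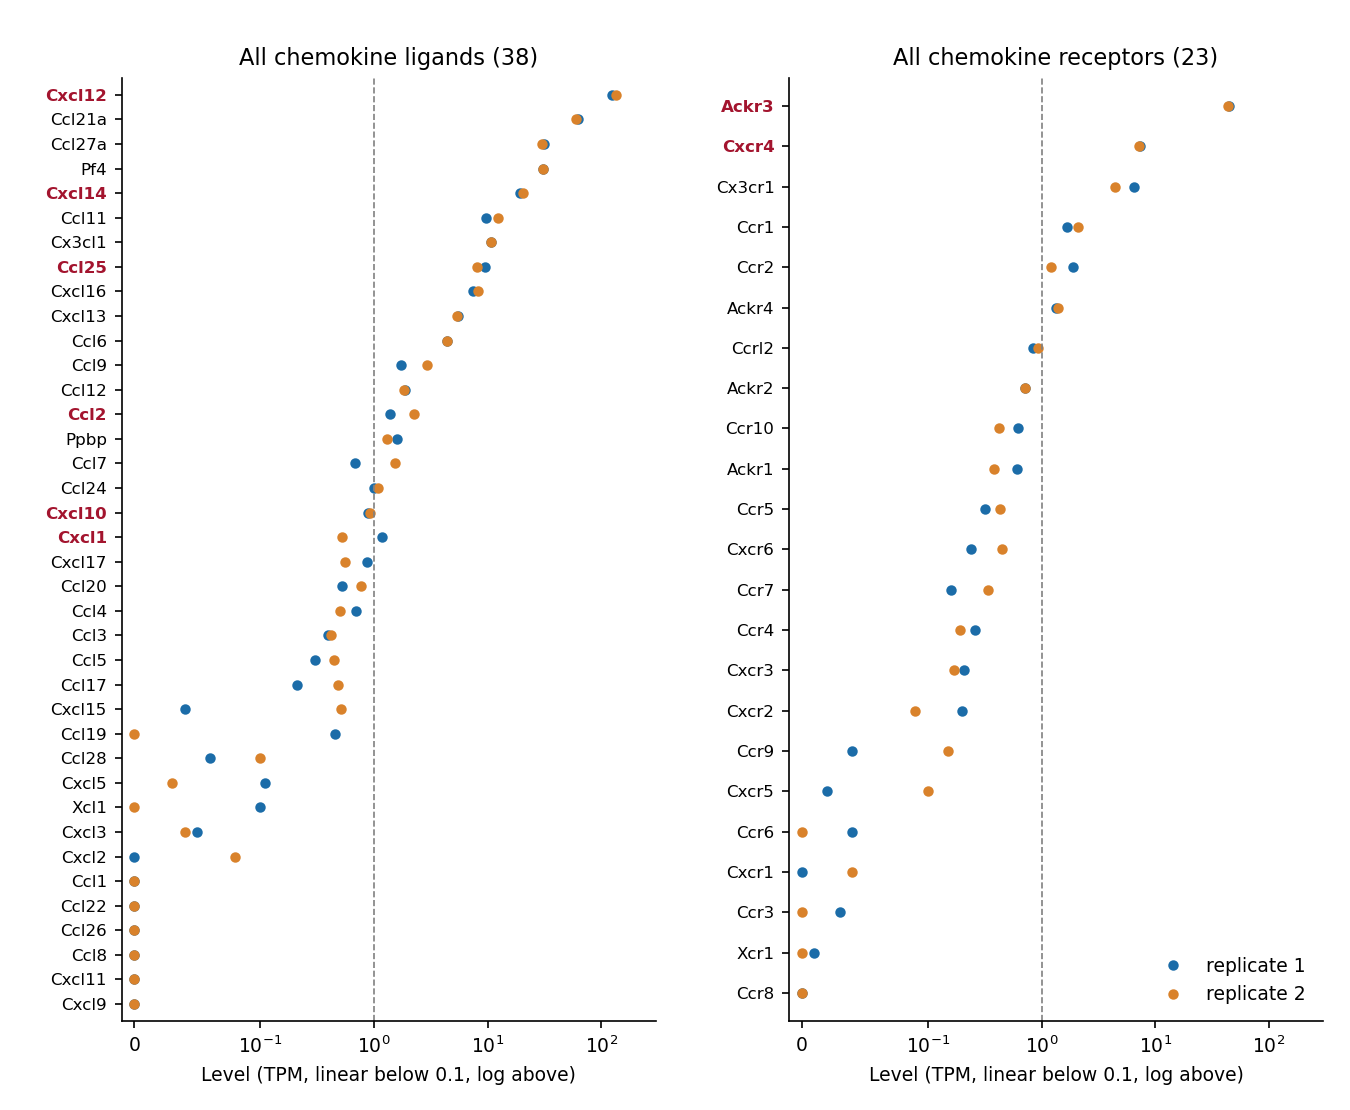
Level in TPM of all 38 chemokine ligands (left) and all 23 receptors (right) in replicate 1 (blue) and replicate 2 (orange), ordered by mean, on an axis that is linear below 0.1 TPM and logarithmic above; names in bold red are the 8 genes described here and the dashed line marks 1 TPM. Cxcl12 tops the ligands and Ackr3 the receptors, and 6 ligands and 1 receptor lie at 0 in both libraries.

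Genes that act with CXCL12 and its receptors were all detected, 17 of 17, with a median of 15.6 and 20.1 TPM. Over all protein-coding genes 62.2% were detected, with a median of 5.43 and 5.46 TPM. MIF, a further ligand of CXCR4, was the highest: Mif had 1614 and 1748 TPM, with the reserve that it has pseudogene copies. Of the inhibitory G protein subunits through which CXCR4 signals, Gnai2 had 371.7 and 375.2 TPM, Gnai3 153.9 and 164.9 TPM and Gnai1 34.9 and 40.2 TPM. Ramp2, a partner of the adrenomedullin receptor, whose ligand ACKR3 also takes up, lay between Gnai2 and Gnai3 with 221.6 and 207.2 TPM. The adrenomedullin gene Adm itself had 8.37 and 9.61 TPM. The receptor kinases Grk5 (2.5 and 3.13 TPM) and Adrbk2, now named Grk3 (3.99 and 3.64 TPM), were the lowest of the list. Dpp4, a protease that trims CXCL12, had 95.95 and 103.7 TPM.

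Cxcl12 was measured as 4 transcripts, and the form with the shortest coding sequence prevailed. Cxcl12-202 encodes 89 codons, Cxcl12-203 93 and Cxcl12-201 119, the lengths known for the alpha, beta and gamma forms. The 3 share the genome positions of their first 266 coding bases and then run on at different positions, so the ends of the coding sequences are shown. Below, the last 24 shared bases are in lower case and the bases from each form's own positions, with the stop codon, in capitals; the first capital is the same letter in all 3.
Cxcl12-202: gtacctggagaaagctttaaacaaGTAA
Cxcl12-203: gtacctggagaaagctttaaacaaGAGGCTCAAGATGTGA
Cxcl12-201: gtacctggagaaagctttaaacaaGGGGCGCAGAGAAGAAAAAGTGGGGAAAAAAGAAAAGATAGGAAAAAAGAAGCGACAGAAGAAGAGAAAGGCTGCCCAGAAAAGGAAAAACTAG
These ends lie at chr6:117173579-117173582, chr6:117178583-117178598 and chr6:117176086-117176179 (GRCm38, plus strand, GENCODE M21). Cxcl12-203 adds 4 codons to the short form. Cxcl12-201 adds 30 codons, of which 17 encode lysine or arginine, the basic tail known to bind heparan sulfate.

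Cxcl12-202 took 63.26% of the gene's TPM in replicate 1 and 65.46% in replicate 2 (64.4% ± 1.56, n = 2), at 78.58 and 88.79 TPM. Cxcl12-203 took 22.99% and 21.41% (22.2% ± 1.12, n = 2), at 28.56 and 29.04 TPM. Cxcl12-201 took 6.47% and 6.07% (6.27% ± 0.283, n = 2), at 8.03 and 8.23 TPM. Thus the alpha form exceeded the beta form 2.75 and 3.06 times, and the beta form exceeded the gamma form 3.56 and 3.53 times, with no overlap of deposited bounds. The other transcript, Cxcl12-204, is annotated as a retained intron: it runs on past the third exon and holds the whole coding sequence of Cxcl12-202. It took 7.28% and 7.07%, at 9.04 and 9.59 TPM, and its bounds overlapped those of Cxcl12-201 in both libraries. Together the transcripts that hold the alpha coding sequence took 70.54% and 72.53%.

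How far these shares can be told apart depends on splice junctions and on the bases that belong to 1 transcript alone. Cxcl12-201 has 2456 such exonic bases, Cxcl12-204 1016, Cxcl12-202 39 and Cxcl12-203 0. The last exon of Cxcl12-203 lies within that of Cxcl12-201, but the junction into it belongs to Cxcl12-203 alone. Cxcl12-202 runs on past the shared part of the third exon into bases that are intron in Cxcl12-203 and Cxcl12-201. Unspliced RNA of those forms would hold these bases too, and how much it adds to Cxcl12-202 was not tested. As a share of expected counts, which are not corrected for length, Cxcl12-202 took 48.4% on average, since it is the shortest of the 4 with 1878 bases against 5627 for Cxcl12-201. It was the leading transcript by either measure in both libraries.

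**Figure D4:**
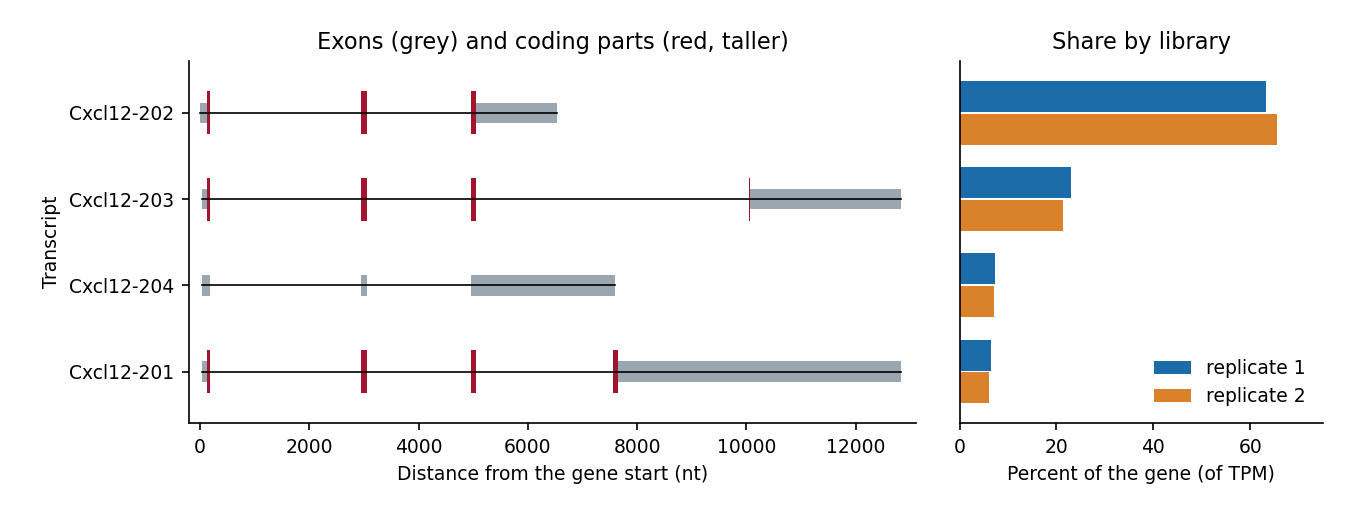
Left, exons (grey) and coding parts (red) of the 4 Cxcl12 transcripts by distance from the gene start in nt; right, percent of the gene's TPM per transcript in replicate 1 (blue) and replicate 2 (orange). The forms differ after the third exon, and Cxcl12-202 takes 63.26% and 65.46%.

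The receptors were each measured as 2 transcripts with 1 clear leader. Ackr3-201 took 97.09% and 99.70% of Ackr3. Cxcr4-201 took 91.44% and 80.78% of Cxcr4, and Cxcr4-202 the remaining 8.56% and 19.22%, from 11.6 and 27.7 counts. Ccl2-201 took 93.44% and 77.23% of Ccl2, and the retained intron form Ccl2-202 6.56% and 22.77%, from 2.05 and 12.8 counts. Cxcl14 and Cxcl1 have a single transcript in the tables, and of 3 Cxcl10 transcripts Cxcl10-201 alone had counts. The leading transcript was the same in both libraries for all 8 genes. For 5 of them the comparison had content, being detected with more than 1 transcript, and over all such genes 91.5% kept their leading transcript.

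Ccl25 was divided between starts that lie 24378 nt apart. From the upstream start 6 transcripts took 55.87% and 53.18% of the gene's TPM, and from the downstream start 2 transcripts took 44.14% and 46.81%. By expected counts the downstream group was larger, with 90.8 and 88.9 counts against 76.2 and 65.1, so which start led depended on the unit. The leading single transcript was the protein-coding Ccl25-201 of the downstream start, with 42.94% and 45.45%. Upstream, Ccl25-202 took 17.84% and 10.21% and Ccl25-208 14.36% and 11.91%. Ccl25-203, also of that start, took 9.90% and 10.54%. These upstream forms are annotated as non-stop or nonsense-mediated decay transcripts.

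The sequences before the starts differed in composition. The upstream window, chr8:4324960-4325209 (250 bases, plus strand, RefSeq on GRCm38.p6), had a GC content of 74.8%, 45 CpG dinucleotides and no match to TATAAA on either strand. The whole of it lies in exons of Elavl1 on the opposite strand. The downstream window, chr8:4349338-4349587, had a GC content of 51.6%, 0 CpG and 1 match to TATAAA, shown in capitals because it begins 16 bases before the start.
Ccl25 downstream start: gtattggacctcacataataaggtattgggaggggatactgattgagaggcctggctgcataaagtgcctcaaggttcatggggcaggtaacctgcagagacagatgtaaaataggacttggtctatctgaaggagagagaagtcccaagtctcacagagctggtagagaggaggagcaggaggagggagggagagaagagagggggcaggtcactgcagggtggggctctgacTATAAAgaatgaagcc
Over 32851 windows of the same length the median GC content was 52.4%, the median number of CpG 6, and 12.4% held TATAAA on either strand. Of the 8 windows of the genes described here 3 held it, the other ones being those of Ackr3 and Cxcr4. A match describes letters and is not evidence of binding.

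The overlap with Elavl1, an RNA-binding protein gene at 67.96 and 67.51 TPM, touches the upstream Ccl25 values. The deposited Ccl25 transcripts share 79 exonic bases with Elavl1, the first exon of the upstream forms. The sources used here do not give the strandedness of the libraries, so reads of the 2 genes cannot be told apart there. The downstream transcripts lie outside this overlap and alone came to 4.15 and 3.75 TPM. Cxcl10 shares 133 exonic bases with Art3 on the opposite strand (2.88 and 2.15 TPM), and how much this adds to its 20 and 23 counts was not tested.

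The pools differed little for the genes with enough counts. Of the 8 genes 5 had a mean of at least 1 CPM, a count scaled to library size, and 0 of these differed by more than 2-fold between the pools, where 2.35% of 15363 genes did. The log2 ratio of replicate 2 over replicate 1 was 0.09 for Cxcl12, 0.09 for Cxcl14 and 0.00 for Ackr3, and it was -0.12 for Cxcr4 and -0.24 for Ccl25, both of which turned positive when scaled to spike-ins (0.31 and 0.18). Of the genes past 2-fold, 89 were higher in replicate 2 and 272 lower. Scaling to the spike-in RNAs moved the median of all genes by 0.43 and turned that split to 320 and 151, with Cxcl12 at 0.53. Without the limit on counts all 8 genes entered, and Cxcl1, with 23 and 11 counts, was past 2-fold at -1.05.

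**Figure D5:**
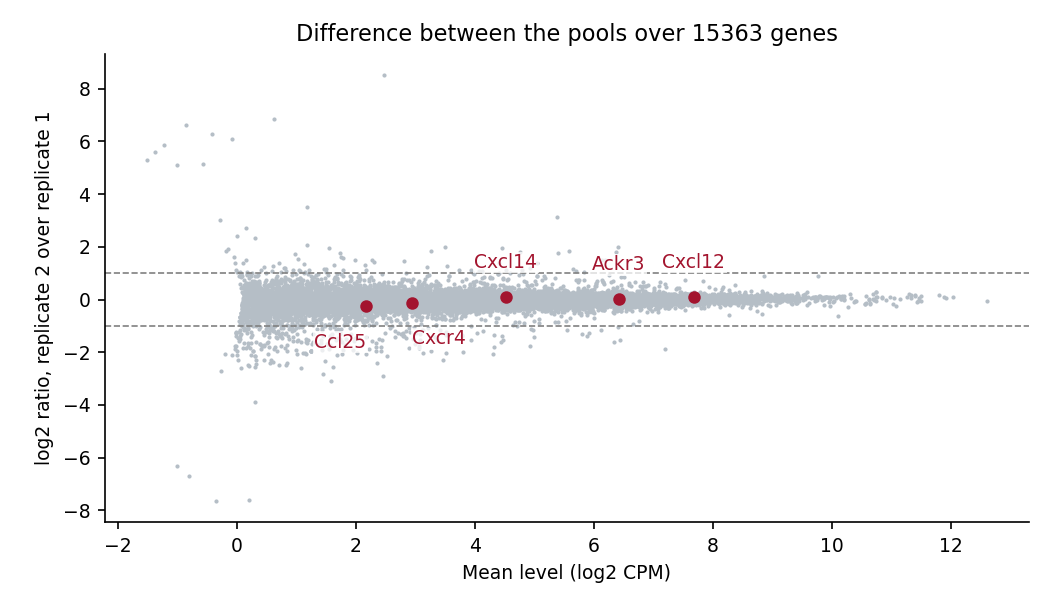
Log2 ratio of replicate 2 over replicate 1 against mean level in log2 CPM for 15363 genes (grey), with the 5 genes that had a mean of at least 1 CPM in red and dashed lines at 2-fold. All 5 lie between the lines, from -0.24 for Ccl25 to 0.09 for Cxcl12 and Cxcl14.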

How the data were processed

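Total RNA over 200 nt was measured in 2 libraries of 1 group, from 10 ng each with spike-ins added, per the labels. Assembly mm10 and annotation M4 are named in the deposited text notes. The sources used here do not give the aligner, quantifier, versions or strandedness. The deposited expected counts are estimates, in which reads that fit several genes or transcripts are split, and need not be whole. The deposited TPM correct these for length and have the same sum in each library, with spike-ins in it. The deposited posterior mean TPM and TPM bounds, a signal that is never negative, and the deposited percent that a transcript takes of its gene come from the same tables. Expected counts summed to 35255968 and 38706236, of which 34261328 and 37900132 fell on mouse genes, and spike-ins took 2.82% and 2.08%.

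Names, exons and coding parts come from GENCODE M21 on GRCm38, matched by stable identifier. All 23 transcripts matched, 21 with the same length. Start windows come from RefSeq for 7 of the 8 genes, all but Ccl2. For the pools, counts were rounded, normalized by TMM (edgeR 4.0.16, R 4.3.3) and compared as log2 ratios with a prior count of 2, where the mean reached 1 CPM. The deposited FPKM, scaled by length and library size, gave no value here. DESeq2 1.42.0 size factors were an alternative. Python 3.11.15 was used otherwise. The code was tested on simulated data. The text names all 8 genes, their stated receptors, the up to 4 highest and up to 2 lowest genes of each family list and those with 0 counts in both libraries, all Cxcl12 transcripts, and other transcripts with at least 10% of a gene in either library. Cd3e, Cd79a, Ms4a1, S100a8, Ly6g, Vil1, Cdx2, Krt10, Acta2, Gnai1, Adm and Dpp4 were named after their values were seen. The members and lists were chosen with earlier results of these data known. Floors cover counting error only.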

Additional observations from a re-analysis of the deposited data

How the results depend on the processing

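Of 35 alternatives to the main values, 30 stayed within the spread of the libraries or, for counts, within 1.5 times. Part of this was fixed in advance. A ratio or share from a single library always lies within the spread of 2. Detection, at 6 of 8 genes, could not rise past 1.5 times. No log2 ratio changed sign for Cxcl12 over Cxcr4, Cxcl12 over Ackr3 or the summed ligands over receptors. For Ccl2 and Ccr2, not among these alternatives, the order differed between the libraries. Between the pools, the log2 ratios of Cxcr4 and Ccl25 turned positive with spike-in scaling (0.31 and 0.18), and that of Ackr3 went from 0.0016 to -0.015 with library size alone. For the levels of single genes 8 of 32 alternatives moved past the spread. All 8 were posterior means or rescaled values, since a level from a single library could not move by this rule. Cxcl10, below 1 TPM in both libraries, had a mean of 1.27 TPM from posterior means and 1.08 TPM when rescaled over protein-coding genes. With 1 TPM added to both genes the log2 ratio of Cxcl12 over Cxcr4 was 3.98, and by share of expected counts Cxcl12-202 took 48.4% of the gene. The share of the upstream Ccl25 start, examined after the data were seen, was 59.7% from posterior means and 44.0% from expected counts, so that the downstream start then led. Without the limit on low counts 1 of the 8 genes, Cxcl1, was past 2-fold between the pools, with 2521 of 25149 genes past it in place of 361 of 15363; at 1.5-fold 903 genes were. Detection ranged from 5 of 8 genes (5 TPM, or a lower bound of 1 TPM) to 8 of 8 (0.5 TPM, or 10 expected counts), with 6 and 7 in single libraries. Leaving out a library gave log2 ratios from 4.08 to 4.24 (Cxcl12 over Cxcr4), 1.49 to 1.64 (over Ackr3) and 1.60 to 1.73 (all ligands over receptors). Depth limits Ccl2, Cxcl10 and Cxcl1, which rest on 11 to 44 counts. No paired analysis was possible because there is 1 group, so that replicate numbers pair no samples across groups; the ligand over receptor ratios were taken within each library.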

Other observations

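Chemokine ligand genes that stand alone in the genome were compared with those in clusters, taking as alone a gene with no other ligand gene within 1 Mb (a window chosen after the data were seen). Of 9 genes that stand alone 5 were detected, with a median of 5.44 and 5.42 TPM, and of 29 clustered genes 10, with a median of 0.68 and 0.51 TPM. Over all protein-coding genes 62.2% were detected, with a median of 5.43 and 5.46 TPM, so the lone genes lay near that background. Cxcl12, Cxcl14 and Ccl25 belong to the first kind, with Cxcl13 and Cxcl16 the other detected ones. At least 5 TPM in both libraries was reached by 5 genes of each kind, the clustered ones being Ccl21a, Ccl27a, Pf4, Ccl11 and Cx3cl1. Ccl2, Cxcl1 and Cxcl10 lie in clusters. These are values of 2 libraries, with no test.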
